A study of Rattus norvegicus with 11 samples.

Results

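The genes described here encode the core proteins with which nerve terminals release their vesicles, together with the proteins that botulinum neurotoxins bind or cut. They are Vamp1, Vamp2, Vamp3 and Stx1a, which encode SNARE proteins, Syt1, which encodes synaptotagmin 1, and Sv2a, Sv2b and Sv2c, which encode the SV2 glycoproteins of the vesicle membrane. Members were taken by the RefSeq accession of their array probe, and 8 of the 9 genes listed had a matching probe, each with 1 probe of the 24684 tested and 1 spot per array. No probe was matched to the accessions of Snap25, the remaining gene of the list, and it was not analysed here.

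Vesicle release in neurons rests on the pairing of a SNARE protein of the vesicle (VAMP, also called synaptobrevin) with SNARE proteins of the plasma membrane (syntaxin and SNAP-25), which pulls the membranes together. Synaptotagmin senses the calcium that enters the terminal and triggers fusion, and SV2 proteins are integral to the vesicle. Botulinum neurotoxins enter nerve endings by binding SV2 or synaptotagmin together with gangliosides, and their light chain then cuts VAMP, syntaxin or SNAP-25 according to the serotype. In trigeminal neurons the same machinery releases glutamate and neuropeptides such as calcitonin gene-related peptide.

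The trigeminal ganglia (TRG) of male Wistar rats were compared 7 days after 50 μl of complete Freund's adjuvant (CFA; killed mycobacteria in paraffin oil, 1 mg/ml) had been injected subcutaneously into 1 whisker pad. The CFA group held the ipsilateral ganglia of rats 1, 2, 3, 5, 6 and 8 (n = 6), and the control group held the contralateral ganglia of rats 1, 2, 3, 5 and 6 (n = 5). Both groups thus came from injected and anaesthetised animals, and ganglia of rats without CFA were not analysed here. Each ganglion was hybridised to 1 single-colour array, so that a value is the relative abundance of a transcript in the whole ganglion and fewer cells of a type cannot be told apart from less RNA per cell. Levels are given as quantile-normalised log2 of the scanner's processed signal, and changes as log2 of CFA over contralateral, where 1 stands for a 2-fold difference. The level of a probe depends on its sequence as well as on its transcript, so levels were set against each other only within a gene.

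The median processed signal was 74.6 to 117 on the CFA arrays and 87.9 to 96.4 on the contralateral arrays, and 68.9% to 82.8% of the spots of an array were well above background. All 16 neuron markers measured were well above background on all 11 arrays, and their summed linear signal was 1497400 to 1604700 in the CFA group against 1499500 to 1591400 in the contralateral group. The summed signal of 9 anterior pituitary markers varied far more between arrays, from 4239 to 307800 in the CFA group (highest in rat 2) and from 2877 to 107400 in the contralateral group (highest in rat 6). It was thus high on single arrays of both groups. The arrays fell into 5 groups of equal scan time, which were taken as slides here, over 3 days of scan. Side was largely confounded with both, since all 5 contralateral arrays were scanned on day 1 and 5 of 6 CFA arrays on days 2 and 3. Slide 2 was the only slide with arrays of both sides (CFA rat 1, contralateral rats 5 and 6). Differences within slide 2 are given as a description of these 3 arrays. Their summed neuron signal was 1497000, 1548000 and 1500000, but their summed pituitary signal was 4239, 10510 and 107400. The difference within slide 2 was 4.57 for the satellite glia marker Gfap, 2.98 for the oligodendrocyte marker Mog and -11.2 for the pituitary marker Prl. Within slide 2, side thus cannot be told apart from make-up of the ganglion.

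Transcripts of the release machinery were present in every ganglion, and no difference between the sides passed a test in any of the 8 genes. All 8 probes were well above background on all 11 arrays. Of the 8 genes, 0 passed the study's threshold (unadjusted p of 0.05 or less and absolute fold change over 2), against 498 of all 24684 probes, or 2.02%. None had an unadjusted p of 0.05 or less, which 10.8% of all probes had, and the adjusted p (limma, Benjamini-Hochberg over all probes) ranged from 0.638 to 0.997. At an adjusted p of 0.05, 0 of all probes passed, while 2659 had an unadjusted p of 0.05 or less. The groups overlapped in all 8 genes. The changes ran from -0.13 (Sv2c) to 0.18 (Syt1) on the log2 scale, with a median of -0.02 over the members against -0.04 over all probes, and 2 were positive and 6 negative.

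In the fit with no term for slide or day of scan, the intervals of these changes were narrow. The 95% interval of the change lay inside 2-fold in either direction for 8 of 8 members, against 77.6% of all probes, dim ones included. Expressed as a fold, the widest of these intervals was that of Syt1, from 0.902 to 1.42, and the narrowest that of Vamp1, from 0.867 to 1.11. A p that misses the threshold does not show equal levels, and the number of arrays limits what smaller differences could be seen. The intervals measure the spread between arrays and carry no share for slide or day of scan. The estimates of Vamp1, Vamp2, Stx1a and Sv2c with the slide fitted as a block (0.17, 0.20, 0.34 and 0.22) lay above their intervals.

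The VAMP transcripts come first, since VAMP is the vesicle's own SNARE and the substrate of several botulinum serotypes. Vamp1 encodes the form that is abundant in sensory and motor neurons. Its log2 signal was 17.07, 17.34 and 17.40 (lowest, median and highest) in the CFA group, and 17.38, 17.35, 17.41, 17.23 and 17.23 in the contralateral ganglia of rats 1, 2, 3, 5 and 6. Apart from the CFA array of rat 8, which was the lowest of all 11, the arrays of both sides lay within the same narrow band. The means were 17.30 ± 0.12 (SD, n = 6) and 17.32 ± 0.08 (SD, n = 5), and the change of -0.02 (SE 0.08) gave an adjusted p of 0.914 in limma and p = 0.749 in the two-sided exact permutation test over the 462 splits of the arrays. CFA was the higher side in 4 of 5 rats.

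Vamp2 encodes the main vesicle SNARE of central synapses. It measured 16.30, 16.45 and 16.62 (lowest, median and highest) in the CFA group, and 16.57, 16.59, 16.71, 16.50 and 16.35 on the contralateral side of rats 1, 2, 3, 5 and 6. The contralateral array of rat 3 was the highest and the CFA array of the same rat the lowest, and the other arrays of both sides were interspersed. The means were 16.45 ± 0.13 (SD, n = 6) and 16.54 ± 0.13 (SD, n = 5), a change of -0.09 (SE 0.09; limma adjusted p = 0.691; exact permutation p = 0.264). The CFA side was lower in 4 of 5 rats, by 0.41 in rat 3 and by no more than 0.17 in the others, while within slide 2 the CFA array was 0.20 higher.

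Vamp3 encodes cellubrevin, the form used for membrane traffic in most cells, glia included. Its signal was 13.63, 13.74 and 13.99 (lowest, median and highest) in the CFA group, and 13.94, 13.66, 13.62, 13.84 and 13.77 in the contralateral group. Both sides spanned nearly the same range. The means were 13.76 ± 0.14 (SD, n = 6) and 13.76 ± 0.13 (SD, n = 5), and the change was -0.001 (SE 0.10; limma adjusted p = 0.997; exact permutation p = 0.991).

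Stx1a encodes syntaxin 1A, the plasma membrane SNARE that botulinum neurotoxin C cuts. It measured 12.70, 12.96 and 13.16 (lowest, median and highest) in the CFA group, and 12.91, 13.05, 13.19, 12.95 and 12.70 on the contralateral side of rats 1, 2, 3, 5 and 6. Each side held arrays near both ends of the range. The means were 12.95 ± 0.16 (SD, n = 6) and 12.96 ± 0.18 (SD, n = 5), with a change of -0.01 (SE 0.11; limma adjusted p = 0.985; exact permutation p = 0.952). The rats differed in sign, from -0.49 in rat 3 to 0.26 in rat 1, and CFA was higher in 3 of 5. Within slide 2 the CFA array was 0.34 above the mean of the contralateral arrays, the largest such difference among the members.

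**Figure D1:**
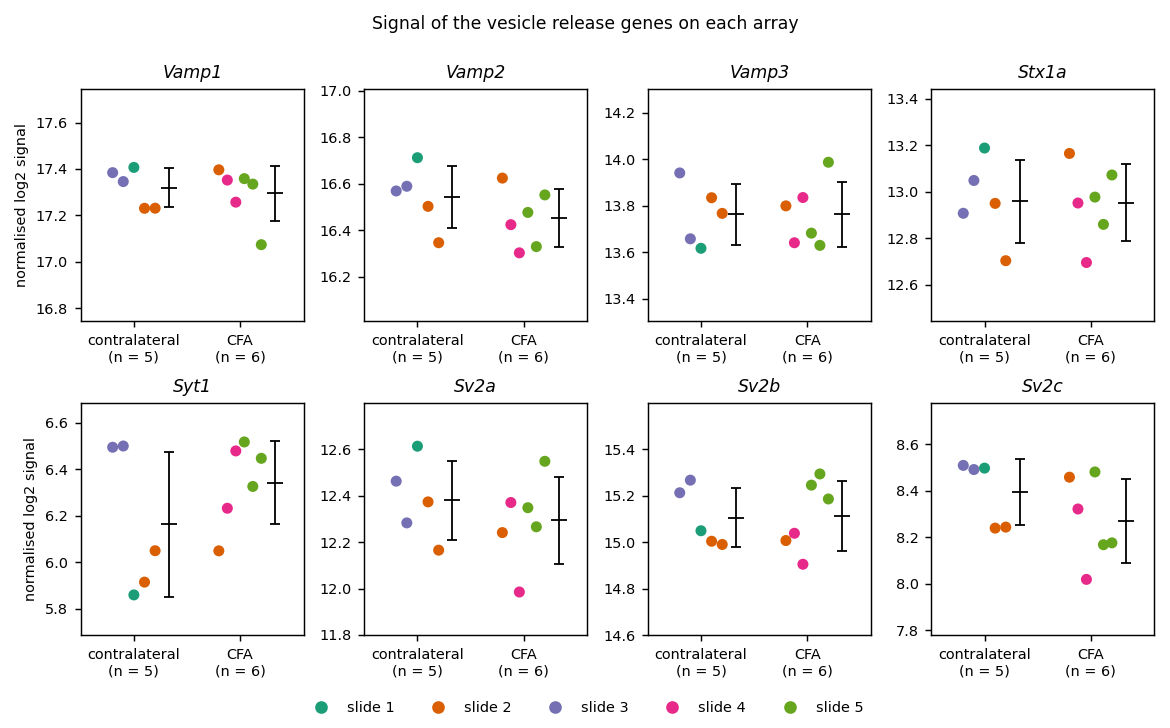
Normalised log2 signal of the 8 vesicle release genes (1 panel each, vertical axis in log2 units with its own range) on the 5 contralateral and 6 CFA arrays. Points are single ganglia coloured by slide, and the bar beside them is the mean ± SD. The groups overlap in every panel, and on slide 2 (orange), which holds both sides, the single CFA array lies above both contralateral arrays by more than the width of a point in the panels of Vamp1, Vamp2, Stx1a and Sv2c.

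Syt1 encodes the calcium sensor of fast release and, with gangliosides, a receptor of botulinum neurotoxin B. It showed the widest spread between arrays of the 8 genes and the dimmest probe, whose processed signal was 2.22 to 5.10 times the local background. The log2 signal was 6.05, 6.39 and 6.52 (lowest, median and highest) in the CFA group, and 6.49, 6.50, 5.86, 5.91 and 6.05 on the contralateral side of rats 1, 2, 3, 5 and 6. The contralateral arrays of rats 1 and 2, both on slide 3, reached the top of the CFA range, whereas the other 3 lay close to or below its lowest value. The means were 6.34 ± 0.18 (SD, n = 6) and 6.16 ± 0.31 (SD, n = 5), a change of 0.18 (SE 0.15; limma adjusted p = 0.638; exact permutation p = 0.273). CFA was lower by 0.45 in rat 1 and by 0.27 in rat 2, and higher by 0.62, 0.60 and 0.28 in rats 3, 5 and 6.

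The SV2 genes encode the vesicle glycoproteins that serve botulinum neurotoxin A as its protein receptor. Sv2a is the form found most widely in neurons, and its protein is also the target of the antiepileptic drug levetiracetam. It measured 11.99, 12.31 and 12.55 (lowest, median and highest) in the CFA group, and 12.46, 12.28, 12.61, 12.37 and 12.17 on the contralateral side. The CFA array of rat 3 was the lowest and the contralateral array of that rat the highest, with the rest in between. The means were 12.29 ± 0.19 (SD, n = 6) and 12.38 ± 0.17 (SD, n = 5), a change of -0.09 (SE 0.11; limma adjusted p = 0.767; exact permutation p = 0.446).

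Sv2b, a paralogue with a more restricted distribution in the brain, measured 14.91, 15.11 and 15.29 (lowest, median and highest) in the CFA group, and 15.21, 15.27, 15.05, 15.00 and 14.99 in the contralateral group. The 3 CFA arrays of slide 5 and the contralateral arrays of slide 3 were the higher ones on either side, and the other 6 arrays lay below them. The means were 15.11 ± 0.15 (SD, n = 6) and 15.11 ± 0.13 (SD, n = 5), a change of 0.01 (SE 0.10; limma adjusted p = 0.978; exact permutation p = 0.926).

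Sv2c, the paralogue with the highest affinity for botulinum neurotoxin A, had the largest negative change of the 8 genes. Its signal was 8.02, 8.25 and 8.48 (lowest, median and highest) in the CFA group, and 8.51, 8.49, 8.50, 8.24 and 8.24 on the contralateral side of rats 1, 2, 3, 5 and 6. The contralateral arrays of rats 1, 2 and 3, on slides 1 and 3, were the 3 highest of all, and those of rats 5 and 6, on slide 2, lay in the middle of the CFA range. The means were 8.27 ± 0.18 (SD, n = 6) and 8.40 ± 0.14 (SD, n = 5), a change of -0.13 (SE 0.11; limma adjusted p = 0.649; exact permutation p = 0.225). CFA was lower in 4 of 5 rats, and within slide 2 it was 0.22 higher. The exact permutation test was run for these 8 genes and for the other genes named below, its p-values are unadjusted, and the smallest it can give is 0.00216.

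**Figure D2:**
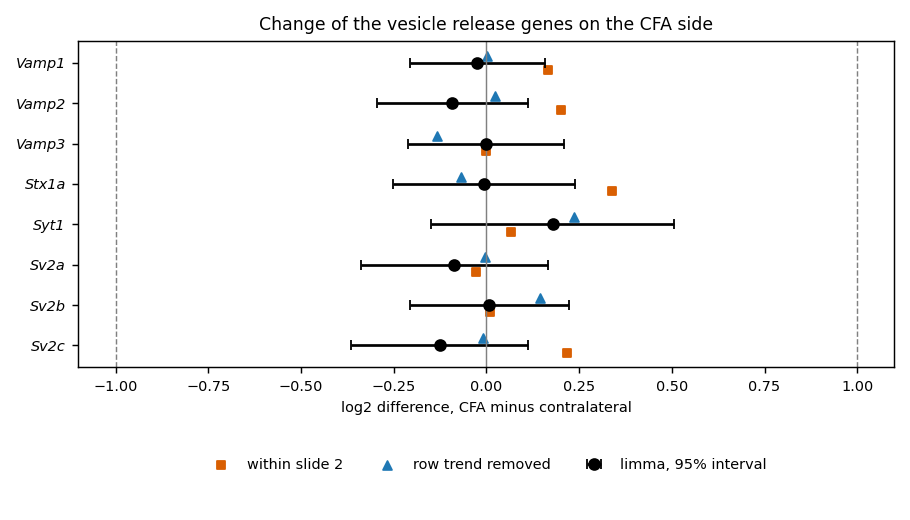
Change of the 8 genes on the horizontal axis, as log2 of CFA over contralateral, with 0 as a solid line and 2-fold in either direction as dashed lines. Circles with bars are the limma estimate and its 95% interval, squares the difference within slide 2 (3 arrays), and triangles the estimate after removal of a trend over array rows. Each interval includes 0 and lies inside 2-fold, and the squares of Vamp1, Vamp2, Stx1a and Sv2c, at 0.17, 0.20, 0.34 and 0.22, lie above their intervals.

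The direction of the small changes was not a stable property. Under the 24 alternative settings run, 0 of the 8 genes passed the threshold in any, and 1 gene, Sv2a, kept its sign in all 24. With the slide as a block, which leaves slide 2 to carry the contrast, the estimates of Vamp1, Vamp2, Stx1a and Sv2c turned positive (0.17, 0.20, 0.34 and 0.22). The smallest unadjusted p that any member reached under any alternative was 0.0990, for Stx1a in that setting.

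The spread between arrays was small for these genes, and part of it was shared. Their pooled SDs, from 0.10 (Vamp1) to 0.25 (Syt1), compare with a median of 0.31 over all probes, and between 61.3% (Syt1) and 93.4% (Vamp1) of all probes had a larger one. All 8 probes were well above background on all 11 arrays, as were 16772 of all 24684 probes. The comparison thus includes dimmer probes and was not matched for signal. After removal of the group means, Vamp2 and Stx1a deviated together most closely of the 28 pairs of members (Pearson's r = 0.96 over 11 arrays, which share slide, RNA preparation and normalisation). The difference between their log2 signals had an SD of 0.06 in each group, below that of either gene alone. Vamp2 also went with Sv2c (r = 0.72) and Sv2a (r = 0.69), and Stx1a with Sv2a (r = 0.72), whereas the lowest value was that of Vamp1 and Vamp3 (r = -0.60).

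A trend over the rows of the array moved with these likenesses. When it was removed, the r of Vamp2 and Stx1a was 0.56 and that of Vamp2 and Sv2c 0.21, while that of Stx1a and Sv2c was 0.66 against 0.69 before. The part of the trend in the shared deviations beyond this was not tested. The CFA array of rat 3 was the lowest of its group for Vamp2, Stx1a, Sv2a, Sv2b and Sv2c, and the contralateral array of rat 3 the highest of its group for Vamp1, Vamp2, Stx1a and Sv2a.

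**Figure D3:**
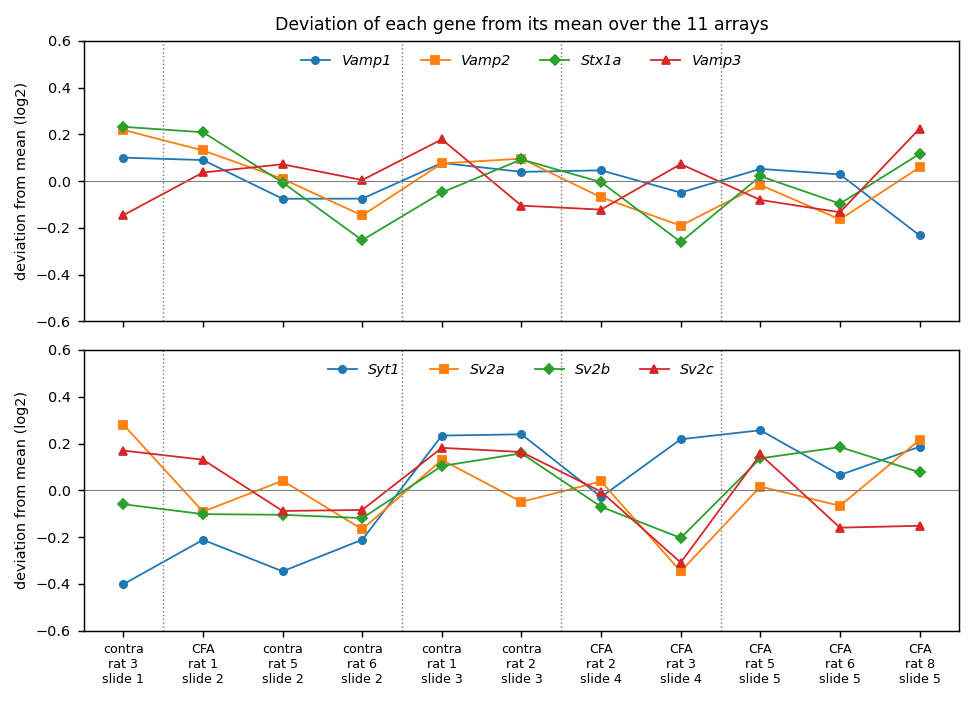
Deviation of each gene from its mean over the 11 arrays (vertical axis, log2 units), with the arrays in the order of their slides, separated by dotted lines. The upper panel shows the SNARE genes and the lower panel Syt1 and the SV2 genes, and lines only connect the points of a gene. Vamp2 and Stx1a follow each other (r = 0.96 after removal of the group means), and Syt1 is low on slides 1 and 2.

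Vamp2 and Stx1a had the highest r of the 28 pairs before the row trend was removed (0.96, against 0.56 after). The 250 bases before their transcription start are shown (RefSeq sequence, build GRCr8, 5′ to 3′ on the strand of the gene). The pair was picked from these same data, and shared regulation was not tested. Capitals mark the GC box GGGCGG, or CCGCCC for a box on the other strand. Vamp2 lies on the plus strand (chr10:54292539-54292788) and holds 3 boxes, and Stx1a lies on the minus strand (chr12:27306472-27306721) and holds 4.
Vamp2: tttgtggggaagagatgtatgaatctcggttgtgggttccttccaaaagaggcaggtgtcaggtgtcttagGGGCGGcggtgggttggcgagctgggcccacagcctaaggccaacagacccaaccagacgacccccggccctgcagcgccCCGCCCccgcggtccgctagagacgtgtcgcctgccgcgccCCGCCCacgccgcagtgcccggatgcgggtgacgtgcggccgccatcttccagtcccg
Stx1a: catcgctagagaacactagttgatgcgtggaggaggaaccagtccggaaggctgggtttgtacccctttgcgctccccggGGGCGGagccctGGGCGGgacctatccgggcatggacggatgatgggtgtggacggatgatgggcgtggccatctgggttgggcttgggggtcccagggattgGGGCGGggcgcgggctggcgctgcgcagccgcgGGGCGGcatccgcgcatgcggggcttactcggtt

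Of the 9 listed genes, 7 had an entry in the promoter table, and 5 of these 7 (Vamp1, Vamp2, Stx1a, Syt1 and Sv2c) held a GC box on either strand, which 32.4% of all 27457 promoters of that length held. The TATA box letters TATAAA were found in 0 of 7, against 13.1% of all promoters. The cyclic AMP response element TGACGTCA was found in 1 of 7, Vamp1, against 1.7%, and its shorter core TGACG, which the full element contains, in Vamp1 and Vamp2, against 19.0%. CCAAT was found in Vamp1, Stx1a and Sv2b, against 34.3%. These are matches of letters, and the arrays hold no measure of binding.

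The rest of the release machinery gave 3 genes past the study's threshold, a calcium sensor and a pair of active zone scaffolds, and the dense core granule gene Scg2 stood out by its small spread. Of 114 other listed vesicle genes 101 were measured, and 2 of them were higher and 1 lower on the CFA side at that threshold, against 1.15% of all probes higher and 0.863% lower. This is near the background. An unadjusted p of 0.05 or less was reached by 10 of 101, against 10.8% of all probes, and an adjusted p of 0.05 by 0. The median change was 0.01, with 55 positive and 46 negative, and the groups did not overlap in 3 genes (Syt7, Scg2 and Rab27a), against 1.2% of all probes. For the counts of rats below, 13.1% of all probes had the same sign in all 5 rats with both sides. The sides of a rat never shared a slide.

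Among the calcium sensors 1 of 20 measured genes passed the threshold. It was Syt7, which encodes synaptotagmin 7, a sensor of high calcium affinity that acts in slow release and vesicle replenishment. Its log2 signal was 5.04, 5.27 and 5.64 (lowest, median and highest) in the CFA group, and 2.13, 2.84, 4.02, 4.90 and 4.71 on the contralateral side of rats 1, 2, 3, 5 and 6. All CFA arrays lay above all contralateral arrays, and the contralateral arrays closest to the CFA range, those of rats 5 and 6, shared slide 2 with the lowest CFA array, that of rat 1. The change was 1.59 (SE 0.45; limma adjusted p = 0.321; exact permutation p = 0.00216), CFA was higher in 5 of 5 rats, and within slide 2 the difference was 0.24. With no background correction, or with normexp correction, the change was 0.57 or 0.33 and no longer past the 2-fold limit, and the contralateral probe was well above background on 4 of 5 arrays.

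The other sensors named by the rule did not pass. Syt6, a synaptotagmin known from acrosomal exocytosis in sperm, gave 0.37 (SE 0.15; limma adjusted p = 0.451). Rph3a, which encodes the Rab3 effector rabphilin, gave 0.66 (SE 0.33; limma adjusted p = 0.489), and 0.10 within slide 2. Its CFA arrays on slide 4 measured 8.87 and 9.07. The other CFA arrays measured 7.29 to 7.71 and the contralateral arrays 7.14 to 7.49. Cplx1, which encodes complexin 1, a clamp and activator of the SNARE complex, gave -0.18 (SE 0.08; limma adjusted p = 0.465), and 0.07 with the slide as a block.

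Among the priming and active zone genes 2 of 20 passed. Rims1 encodes RIM1, the scaffold that ties calcium channels and vesicles to the release site. It measured 7.14, 7.68 and 8.10 (lowest, median and highest) in the CFA group, and 4.44, 5.11, 6.14, 8.01 and 7.48 on the contralateral side of rats 1, 2, 3, 5 and 6. The contralateral arrays on slide 2 (rats 5 and 6) lay within the CFA range and the other 3 below it. The change was 1.48 (SE 0.58; limma adjusted p = 0.435; exact permutation p = 0.0433), and 0.36 within slide 2. It no longer passed without CFA rat 1 (1.40), CFA rat 5 (1.40), contralateral rat 1 (1.03) or contralateral rat 2 (1.20). Nor did Rims1 pass with no background correction, with normexp, or with the day of scan (1.87) or the slide (0.36) as a block.

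Rims4, which encodes a short RIM protein that lacks most of the scaffold's domains, was lower on the CFA side, on a dim probe in the last of the 532 rows of the array. The scanner software marked it as well above background on 1 array of the CFA group and on 3 of the contralateral group. The signal was 2.53, 3.05 and 3.52 (lowest, median and highest) in the CFA group, and 4.58, 4.43, 4.93, 3.40 and 3.37 on the contralateral side. The contralateral arrays on slide 2 again fell within the CFA range. The change was -1.08 (SE 0.32; limma adjusted p = 0.332; exact permutation p = 0.0195), and -0.65 within slide 2. It no longer passed without CFA rat 6 (-0.97), contralateral rat 1 (-0.97) or contralateral rat 3 (-0.88), and its probe fell away when dim probes were filtered out, which left 2 vesicle genes past the threshold. Nor did Rims4 pass with no background correction, with normexp or with the slide as a block (-0.65). Of the 3 genes, Syt7 alone passed with any 1 array left out, at 1.19 to 1.88, but it did not pass with the day of scan (1.32; limma adjusted p = 0.913) or the slide (0.24; limma adjusted p = 0.915) as a block. Without contralateral rat 1 it was the single vesicle gene to pass.

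Rab27a, which encodes a small GTPase that docks secretory granules, was the only gene of this class without overlap. Its signal was 12.18, 12.52 and 12.63 in the CFA group (lowest, median and highest), and 12.70, 12.78, 12.65, 12.67 and 12.69 in the contralateral group. The ranges all but touched, and the change was -0.21 (SE 0.09; limma adjusted p = 0.458; exact permutation p = 0.00649). It was -0.05 within slide 2 and -0.07 with the day of scan as a block. Erc2 and Rab3b, which encode the active zone protein CAST and a vesicle GTPase, gave 0.40 (SE 0.19; limma adjusted p = 0.469) and -0.23 (SE 0.12; limma adjusted p = 0.486).

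**Figure D4:**
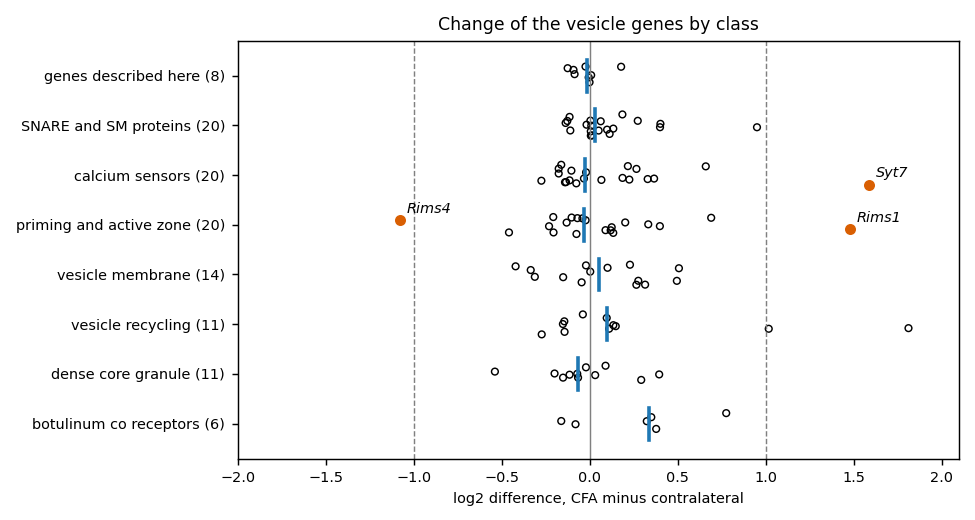
Change of every measured vesicle gene (circles, log2 of CFA over contralateral on the horizontal axis) by class, with the number of genes in parentheses and the class median as a blue bar. Dashed lines mark 2-fold and filled circles the genes past the study's threshold. The 8 genes described here lie between -0.13 and 0.18, and the 3 named genes, Syt7, Rims1 and Rims4, lie at 1.59, 1.48 and -1.08. Syt2 stands in 2 classes, and Picalm and Amph lie beyond 2-fold with an unadjusted p above 0.05.

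Of 20 other SNARE and SM genes, 0 passed the threshold. Stx3, a syntaxin of epithelial cells and of ribbon synapses, came nearest. It measured 4.93, 5.72 and 5.91 (lowest, median and highest) in the CFA group, and 3.80, 4.16, 4.45, 5.22 and 5.23 on the contralateral side of rats 1, 2, 3, 5 and 6. The groups overlapped through the arrays of slides 2 and 4, and the contralateral arrays of slides 1 and 3 were the lowest. The change was 0.95 (SE 0.30; limma adjusted p = 0.359), higher in 5 of 5 rats, but within slide 2 it was -0.21. It passed the threshold without CFA rat 1 (1.05), CFA rat 2 (1.07), contralateral rat 5 (1.11) or contralateral rat 6 (1.11). Snap47, a relative of SNAP-25, gave -0.14 (SE 0.09; limma adjusted p = 0.550), and Vamp4, which acts between the Golgi and endosomes, gave 0.13 (SE 0.09; limma adjusted p = 0.559).

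Of 11 dense core granule genes, 0 passed the threshold, yet Scg2 had the smallest p of the 101 genes. It encodes secretogranin II, a matrix protein of the granules that carry neuropeptides. Its log2 signal was 15.80, 15.93 and 16.03 (lowest, median and highest) in the CFA group, and 15.46, 15.59, 15.36, 15.58 and 15.69 on the contralateral side of rats 1, 2, 3, 5 and 6. Every CFA array lay above every contralateral array. The means were 15.93 ± 0.08 (SD, n = 6) and 15.54 ± 0.13 (SD, n = 5), a change of 0.39 (SE 0.08; limma adjusted p = 0.219; exact permutation p = 0.00216), or 1.31-fold. CFA was higher in 5 of 5 rats, and 13.1% of all probes had the same sign in all 5. The difference was 0.27 within slide 2 and 0.52 with the row trend removed.

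The remaining granule genes did not share this. The median of the class was -0.07, with 4 positive and 7 negative. Ptprn2, which encodes the granule membrane protein phogrin, gave -0.54 (SE 0.20; limma adjusted p = 0.424), and Pcsk1, which encodes a prohormone convertase, gave -0.20 (SE 0.14; limma adjusted p = 0.574).

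**Figure D5:**
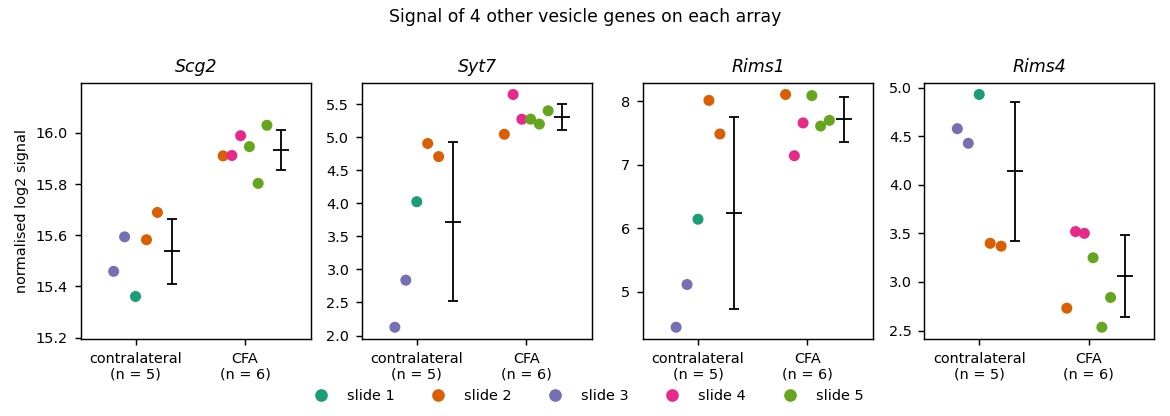
Normalised log2 signal of Scg2, Syt7, Rims1 and Rims4 on each array (vertical axis with its own range per panel), coloured by slide, with mean ± SD beside the points. The groups do not overlap for Scg2 and Syt7, and for Rims1 and Rims4 the contralateral arrays of slide 2 (orange) lie within the CFA range.

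In the vesicle membrane class 0 of 14 genes passed. Dnajc5, which encodes the vesicle chaperone cysteine string protein, gave -0.34 (SE 0.15; limma adjusted p = 0.458), and 0.03 with the slide as a block. Syn1 and Syp, which encode the vesicle proteins synapsin 1 and synaptophysin, gave 0.31 (SE 0.15; limma adjusted p = 0.481) and 0.26 (SE 0.15; limma adjusted p = 0.516). The recycling class likewise had 0 of 11 genes past the threshold. Its largest values, 1.81 for the clathrin adaptor gene Picalm and 1.02 for Amph (amphiphysin), had 95% intervals from -0.37 to 3.99 and from -0.32 to 2.36, and both turned negative with the slide as a block. Without CFA rat 1, on slide 2, both passed the threshold, with 2.42 and 1.40. Dnm3, a dynamin gene, gave -0.27 (SE 0.16; limma adjusted p = 0.520).

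The co-receptors of botulinum neurotoxins other than SV2 and synaptotagmin 1 also gave 0 of 6 genes past the threshold. Fgfr3, which encodes a growth factor receptor described as a co-receptor of serotype A, measured 5.01, 5.48 and 6.10 (lowest, median and highest) in the CFA group, and 4.61, 4.38, 4.10, 4.72 and 6.01 on the contralateral side of rats 1, 2, 3, 5 and 6. Only the contralateral array of rat 6 lay within the CFA range. The change was 0.78 (SE 0.34; limma adjusted p = 0.458; exact permutation p = 0.0736), higher in 5 of 5 rats, and it was -0.30 within slide 2. Without the arrays with the highest pituitary signal (CFA rat 2, contralateral rat 6) it was 1.19 and past the threshold, and without contralateral rat 6 alone it was 1.09 and past it as well. The ganglioside synthesis genes St3gal5 and St8sia5 gave 0.32 (SE 0.20; limma adjusted p = 0.544) and 0.38 (SE 0.24; limma adjusted p = 0.552).

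Where a vesicle gene had several probes, the sign of the change was the same over its probes in 6 of 7 genes, namely Stxbp5, Unc13b, Pclo, Syn1, Syn2 and Itsn1. The exception was Rims2, with -0.02 and 0.06.

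The genes most like Vamp2 and Sv2c in their deviations over the 11 arrays were also looked up among 11416 probes of other genes well above background throughout, with the 8 genes described here left out (Stx1a, given above, was as close to Vamp2 as any). Of these others, Agpat4 (r = 0.96), Lnx2 (r = 0.96) and Scrn1 (r = 0.96) were closest to Vamp2, and Faf2 (r = 0.96), Ppp1r11 (r = 0.94) and Irgq (r = 0.93) to Sv2c. The 11 arrays share slides and normalisation, and these values are given as a description.

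The ganglion's own cell types were present on both sides. The neuron markers had a median change of 0.05, with 0 of 16 past the threshold, and the satellite glia markers -0.01, with 0 of 8. Of these 8, 7 were well above background on all 11 arrays, and Kcnj10 on 0 CFA and 2 contralateral arrays. Gfap varied widely between ganglia, from 10.13 to 15.33 in the CFA group and from 10.23 to 15.23 in the contralateral group. The oligodendrocyte marker Mog likewise ran from 6.55 to 11.01 and from 6.43 to 9.96. The summed signal of the 4 endothelial markers was 11128 to 14467 in the CFA group against 14080 to 16500 in the contralateral group. Of the neutrophil markers 1 of 2 passed, Ltf (lactoferrin), with 1.21 (SE 0.45; limma adjusted p = 0.426), and S100a8 gave -0.06. The Ltf probe was well above background on 4 CFA arrays and on 1 contralateral array, so the size of its change is uncertain. At that threshold 0 passed among those of macrophages, fibroblasts, endothelium, skeletal muscle, red blood cells, central oligodendrocytes and anterior pituitary. Of the 4 endothelial markers, 2 had an unadjusted p of 0.05 or less in limma, against 10.8% of all probes. Both were lower on the CFA side, Tek by a change of -0.30 (limma adjusted p = 0.394) and Cldn5 of -0.27 (limma adjusted p = 0.459). The part of these markers in the values of the vesicle genes was not tested.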

How the data were processed

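RNA of 11 TRG was measured, 6 of the CFA side and 5 of the contralateral side, grouped by the sample labels. The authors deposited linear intensity values from the scanner (Agilent Feature Extraction 11.0.1.1), in which a local background is subtracted and low values are raised to a floor. A table of quantile-normalised intensity values, also deposited by the authors, was used as an alternative.

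Of 43553 spots, 1417 controls were left out, and the 1.38% of spots with an outlier flag became missing values (0 of these flags fell on the 8 genes). Of the 42136 spots kept, flagged ones included, 0 were saturated on any array. Processed signals were put on the log2 scale and quantile normalised, spots of a probe were averaged, and all 24684 probes were compared in limma 3.58.1 (R 4.3.3) with no covariate, as the study's methods name none. Python 3.11.15, pandas 2.3.3 and matplotlib 3.10.9 served for tables and plots. The script was tested on simulated data. Probes were named through RefSeq accessions (14274 of 15321 mRNA probes matched), and a gene with several probes was represented by its brightest. The trend over array rows was a running median over 21 rows.

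Besides the members, the text names the vesicle genes past the study's threshold, up to 3 others of each class by smallest p, and the 3 genes outside the members most correlated with Vamp2 and with Sv2c (Snap25 could not be used). Single genes such as Ltf, Rims2 and the other genes with several probes, and those called under a single alternative, were named after their values were seen. The Schwann cell markers are not reported here. Members and lists were chosen with earlier results of these data known. Equal rat numbers mark the same animal per the labels, so the rat was tried as a block. The correlation of a rat's sides after removal of the group means ran from -0.083 to 0.133 over the 5 rats, 1 of them over 0.1, and 0 of 5 CFA arrays were closest to the other side of their own rat. A slide never held both ganglia of a rat. P-values measure the spread between these ganglia, 1 array each.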

Additional observations from a re-analysis of the deposited data

Results flagged for a closer look

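In 2 of 64 groups of 5 or 6 arrays examined for a single array far from the others, the gap was beyond Dixon's 95% critical value, and chance alone gives about 1 in 20. Both were the CFA array of rat 3. For Rab27a it was the lowest at 12.18, with the next at 12.50 and the highest at 12.63 (gap over range 0.721). For Dnajc5 it was the lowest at 9.63, with the next at 10.12 and the highest at 10.33 (gap over range 0.691). No such array was found for any of the 8 genes described here.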

How the results depend on the processing

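The count of the 8 genes past the study's threshold was 0 under all 24 alternatives (12 planned, 1 chosen after seeing the data, which left out the arrays of CFA rat 2 and contralateral rat 6, and 11 that left out 1 array each). The deposited files used here hold the median signal of a spot and not its mean, so the settings without background correction and with normexp (offset 50) used the median. Each of the 8 genes had 1 probe and 1 spot, so the alternatives of another probe or single spots gave no value. A replicate block for the rat gave 370 probes and 3 other vesicle genes past the threshold, and Vamp1 and Sv2b turned to 0.020 and -0.0067. The pairing changed no call among the named genes.

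The number of probes past the threshold was 288 with dim probes filtered out, 47 with no background correction and 16 with normexp, and it ran from 330 to 796 when 1 array was left out (330 without contralateral rat 1, 771 without contralateral rat 5 and 796 without contralateral rat 6). The number of other vesicle genes past it was 0 with no background correction, 0 with normexp and 6 without the arrays with the most pituitary signal (Stx3, Picalm and Fgfr3 being added), and it ran from 1 to 6 when 1 array was left out (1 without contralateral rat 1, 6 without CFA rat 1, 5 without contralateral rat 6). With the slide as a block 3 passed, all lower (Unc13a, Synpr and Slc18a2), of which 0 were shared, and with the day of scan as a block 3, all lower, of which 1 was shared (Rims4).

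Signs turned as follows. With the slide as a block, Vamp1 was 0.17, Vamp2 0.20, Stx1a 0.34, Sv2c 0.22, Stx3 -0.21, Cplx1 0.067, Rab3b 0.088, Dnajc5 0.028, Syn1 -0.12, Picalm -2.31, Dnm3 0.34, Amph -1.80, Fgfr3 -0.30 and St8sia5 -0.36. With the day of scan as a block, Vamp1 was 0.077, Vamp2 0.080, Vamp3 0.036, Stx1a 0.21, Syt1 -0.11, Sv2b -0.098, Sv2c 0.062, Syn1 -0.15, Picalm -1.23, Dnm3 0.16, Amph -0.91 and St8sia5 -0.34. With no background correction and with normexp, Vamp1 was 0.038 and 0.039, Stx1a 0.0092 and 0.0090, Sv2b -0.025 and -0.025, and Vamp4 -0.045 and -0.045. With the row trend removed Vamp1 was 0.00064 and Vamp2 0.024, with the authors' value table Vamp3 was 0.011 and Stx1a 0.0050, with 75th percentile scaling Sv2b was -0.088, and without the pituitary-rich arrays Vamp3 was 0.024 and Sv2b -0.0058. When 1 array was left out, Vamp1 ran from -0.046 to 0.020, Vamp3 from -0.046 to 0.043, Stx1a from -0.070 to 0.051 and Sv2b from -0.028 to 0.049. The cause of these turns was not tested.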
